A study of Mus musculus with 9 samples.

Results

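The Obox genes encode oocyte-specific homeobox proteins, and 6 of them were examined here: Obox1, Obox2, Obox3, Obox5, Obox6 and Obox7. They were taken by gene name from 30153 genes counted in 9 libraries. A homeobox protein binds DNA through its homeodomain, and the Obox proteins are transcription factors of the PRD-like type. Their genes form a mouse cluster that has expanded by duplication, with many pseudogenes beside the intact copies. As background, Obox messages of the maternal kind (Obox1, Obox2, Obox5 and Obox7) are stored in the egg, whereas Obox3 is known mainly from the embryo around genome activation. Maternal and embryonic Obox proteins are known to act redundantly in switching on the genome of the mouse embryo.

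The libraries came from pools of metaphase II (MII) oocytes, mature eggs arrested in the second meiotic division. All females were 4 weeks old, of mixed genetic background, and of the genotype Sycp3CreERT2/+; Rosa26nT-nG/+. This pairs a Cre recombinase fused to a ligand-gated receptor domain, at the locus of the meiotic gene Sycp3, with a reporter that changes from nuclear red to nuclear green fluorescence after recombination. The 3 groups, sorted by hand on fluorescence, were GFP High (3 pools of 15 to 16 oocytes), GFP Low (3 pools of 49 to 57) and RFP, the unrecombined reporter (3 pools of 87 to 100). Every group had received 5 IU PMSG and, 48 h later, 5 IU hCG, and eggs were freed of cumulus cells with hyaluronidase 13 h after hCG. The labels do not say whether pools came from separate animals, so p-values measure only the spread between these pools, and green or red fluorescence reports recombination history and not a direct treatment of the egg.

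The 6 genes lie together on chromosome 7 of GRCm38. Obox7 (ENSMUSG00000055942) spans 14659496 to 14665996 on the plus strand, Obox2 (ENSMUSG00000074369) 15388721 to 15398545 on the plus strand, and Obox5 (ENSMUSG00000074366) 15750131 to 15759800 on the plus strand. Obox1 (ENSMUSG00000054310) is annotated from 15388948 to 15556866 on the plus strand, so its longest gene model runs across Obox2 and shares 59 exonic bases with it, 3.58% of the exon bases of Obox2. Obox3 (ENSMUSG00000066772) spans 15479825 to 15639902 and Obox6 (ENSMUSG00000041583) 15833241 to 15839678, both on the minus strand. All 6 are annotated as protein coding.

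Because neighbouring Obox genes are near copies, the sequences are shown first. The stretch below was chosen as the 120 coding bases with the most mismatches between Obox1 and Obox2, and it is given 5′ to 3′ from coding base 194 to 313, counted from the A of the start codon. Capitals mark bases that differ from Obox1.
Obox1: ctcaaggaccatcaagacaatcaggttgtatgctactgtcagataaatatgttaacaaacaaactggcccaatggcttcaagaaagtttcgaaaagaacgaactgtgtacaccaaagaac
Obox2: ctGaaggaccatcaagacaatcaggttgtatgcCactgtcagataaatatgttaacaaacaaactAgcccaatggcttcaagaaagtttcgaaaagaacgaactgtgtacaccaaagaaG
Obox5: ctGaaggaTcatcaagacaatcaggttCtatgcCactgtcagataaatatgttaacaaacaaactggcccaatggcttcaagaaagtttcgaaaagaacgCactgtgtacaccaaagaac
Obox7: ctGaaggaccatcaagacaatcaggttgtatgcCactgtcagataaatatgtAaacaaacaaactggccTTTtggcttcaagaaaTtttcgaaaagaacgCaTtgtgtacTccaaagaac
Even here Obox2 differed from Obox1 at only 4 of 120 bases, Obox5 at 5 and Obox7 at 10. The sequences were read from the GENCODE M21 transcripts that match RefSeq records of these genes.

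Over whole transcripts, Obox1 (1512 bases) and Obox2 (1459 bases) were 99.2% identical, with 12 mismatches in 1459 aligned bases. Their annotated coding sequences differ more in length, with 612 bases in Obox1 and 453 in Obox2. Coding identity was 96.0% between Obox5 and Obox7, 95.6% between Obox1 and Obox5, and 93.8% between Obox1 and Obox7. Obox6 stood furthest apart, with 74.2% to 79.8% coding identity to the other members.

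This bears on the counts, since a read that fits several genes cannot be assigned by its sequence. Of all 100-base windows of the transcript, 40.9% in Obox1 and 42.5% in Obox2 occurred letter for letter in the other gene of this pair and in no further gene. Obox3 shared 19.9% of its windows with 5 Obox3 pseudogenes. Obox5 shared 0.116%, Obox7 2.69% and Obox6 0%. Counts of Obox5, Obox6 and Obox7 therefore rest almost wholly on distinct sequence at this length. Between the compared transcripts of Obox1 and Obox2, the split rests on 12 mismatched positions and 53 gap bases. The read length and the handling of reads with several matches are not given in the sources used here, so the levels of Obox1, Obox2 and Obox3 are uncertain.

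**Figure D1:**
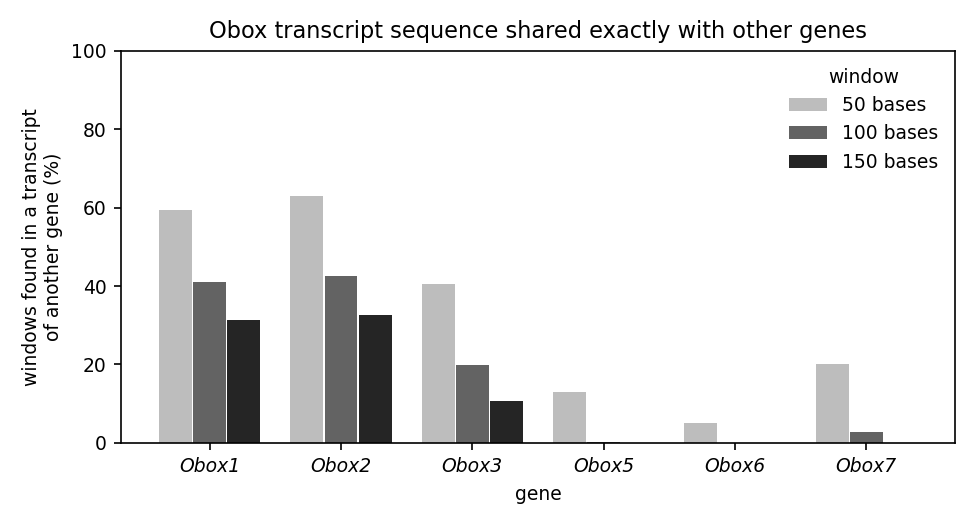
Percentage of windows of 50, 100 and 150 bases (bar shade) in each Obox transcript that occur exactly in a transcript of another gene. Obox1 and Obox2 share 31.4% and 32.7% of their windows even at 150 bases, while Obox5, Obox6 and Obox7 share 0% there.

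A short promoter stretch is also shown, because it is nearly the same in genes that are abundant in the egg and in Obox3, which is nearly absent. RefSeq promoter sequence (GRCm38, 250 bases before to 50 after the RefSeq start) was found for 5 of 6 members, all but Obox6. Over the aligned bases of the whole promoters, Obox1, Obox5 and Obox7 were 93.7% to 97.1% identical to each other, and Obox3 was 73.4% to 74.0% identical to these 3. The windows were chosen for their likeness and run from the first base of a shared 25-base run to the letters TATATAA, which are in capitals.
Obox5: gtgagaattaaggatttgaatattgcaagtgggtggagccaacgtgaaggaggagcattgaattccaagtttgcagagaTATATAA
Obox7: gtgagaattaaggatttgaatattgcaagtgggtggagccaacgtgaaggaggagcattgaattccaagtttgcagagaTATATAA
Obox1: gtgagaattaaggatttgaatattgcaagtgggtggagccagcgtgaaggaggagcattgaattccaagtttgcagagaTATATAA
Obox3: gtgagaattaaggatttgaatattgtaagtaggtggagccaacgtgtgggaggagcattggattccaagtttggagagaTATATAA
The windows are chr7:15750260-15750345 (plus strand) for Obox5, chr7:14659624-14659709 (plus) for Obox7, chr7:15547159-15547244 (plus) for Obox1 and chr7:15639801-15639886 (minus) for Obox3. Obox5 and Obox7 were identical over these 86 bases, Obox1 differed from both at 1 base and Obox3 differed from Obox5 at 6. In Obox2 the promoter table ends before this window is complete, but the 25-base run is there at chr7:15388850-15388874 (plus). All of these stretches lie inside the gene spans given above, whose 5′ ends are further upstream than the RefSeq starts. The word promoter thus refers to the RefSeq start only, and not to the 5′ end of the gene as counted.

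The 25-base run was taken as the longest run shared by the 5 Obox promoters, so its presence in them was fixed beforehand. Searched on 1 strand only, it occurred in 5 of 32851 promoters of the table, which are these 5. TATATAA, searched on both strands, was in the promoters of Obox1, Obox3, Obox5 and Obox7 and in 3.24% of all promoters of the same length. Its first base lay 31 bases before the RefSeq start in Obox5, 30 in Obox3, 19 in Obox1 and 5 in Obox7. TAATTG and TAATTA, chosen as homeodomain-type letters, were in none of the 5 member promoters, and in 8.0% and 5.29% of all promoters. Shorter letters of this type were not searched. The shared 25-base run itself holds atta, the reverse complement of TAAT, with which both motifs begin. TAATCC was found in Obox3 alone of the 5, and in 7.06% of all promoters. CANNTG, the E-box, was in Obox1, Obox2, Obox5 and Obox7, and in 72.3% of all promoters. These motifs were chosen after the sequences were seen, and a match describes letters only.

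Library totals lay between 19381677 and 27746256 counts. The identity of the cells was checked by 12 oocyte markers, all present in each group, whose summed level in library-scaled counts (CPM) was 10885 to 12125 for the GFP High pools, 10370 to 10957 for the GFP Low pools and 9960 to 10744 for the RFP pools. This sum was higher in every GFP High pool than in any RFP pool, and GFP High and GFP Low overlapped. CPM here are scaled by TMM, a factor that aligns library compositions. Of 14 cumulus and granulosa markers, 12 exceeded 3 counts in some GFP High library, 14 in some GFP Low library and 12 in some RFP library. Their summed level was 10.8 to 47.5 CPM in GFP High pools, 13.4 to 42.6 in GFP Low pools and 16.7 to 59.9 in RFP pools, and Cyp19a1, the aromatase gene of granulosa cells, was the highest with a mean of 12.3 CPM. Of 3 blood markers only Ptprc was matched, at 0.144 CPM on average, and of 3 oviduct markers Krt8 was highest at 6.32 CPM. The summed oviduct markers stood at 7.20 to 10.65 CPM for the GFP High pools, above the GFP Low pools at 4.31 to 6.16, while the RFP pools at 3.30 to 10.3 overlapped with both. Of these 3 markers, 1 was at 0 in all GFP Low pools. In bulk pools, fewer cells of a type and less RNA per cell cannot be told apart.

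The Obox messages fell into abundant and nearly absent kinds. Obox1, Obox2, Obox5 and Obox7 exceeded 3 counts, the limit of detection used here, in all 9 libraries, and Obox3 and Obox6 in 3 and 2 libraries. Together the 6 members took 0.0711% to 0.0975% of all counts. The members are ranked against each other per length, in the authors' FPKM (fragments scaled to gene length and library size). Genes of the lists and markers are ranked by mean CPM, which is not divided by length.

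Obox5 was the highest member. Its FPKM were 164, 204 and 228 in GFP High 1, 2 and 3, 168, 170.0 and 150.5 in GFP Low 1, 2 and 3, and 192, 182 and 162 in RFP 1, 2 and 3. Its mean of 180.0 ± 24.3 FPKM (SD over 9 libraries) ranked 193 among 18483 protein-coding genes of the tables. Obox5 made up 43.9% ± 5.71 of the summed FPKM of the 6 members.

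Obox1 came next at 127 ± 25.5 FPKM and rank 301, with a share of 30.6% ± 3.11. It was below Obox5 in 8 of 9 libraries, and in GFP High 1 it was above, at 185 against 164 FPKM. Obox2 followed at 78.8 ± 31.8 FPKM, rank 561, with a share of 18.8% ± 6.29. Obox2 was below Obox1 in 8 of 9 libraries and above it in GFP Low 3, at 119 against 97.1 FPKM. The levels of Obox1 and Obox5 overlapped between libraries, as did those of Obox1 and Obox2, so these neighbours in the order were not separated in every library. Obox7 was the lowest of the abundant members at 27.0 ± 2.39 FPKM and rank 1850, below each of the other 3 in all 9 libraries. The FPKM of Obox5 was 5.50 to 8.06 times that of Obox7 within a library.

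Obox3 and Obox6 were at or near 0. Obox3, the embryonic member, had 1, 0 and 0 counts in GFP High 1, 2 and 3, 5, 17 and 0 in GFP Low 1, 2 and 3, and 3, 16 and 0 in RFP 1, 2 and 3. Most of its 42 reads were therefore in GFP Low 2 and RFP 2, and at 3 counts or fewer in the other libraries but GFP Low 1. Obox6 had 5, 0 and 0 counts in the GFP High pools, 0, 0 and 18 in the GFP Low pools, and 0, 0 and 2 in the RFP pools, and 6 of 9 libraries were at 0. Both fell below the filter on low counts in all 3 comparisons and were not tested. The authors' deposited table lists Obox3 with an adjusted p of 0.834 between the GFP High and GFP Low pools and 1 in both comparisons with RFP.

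**Figure D2:**
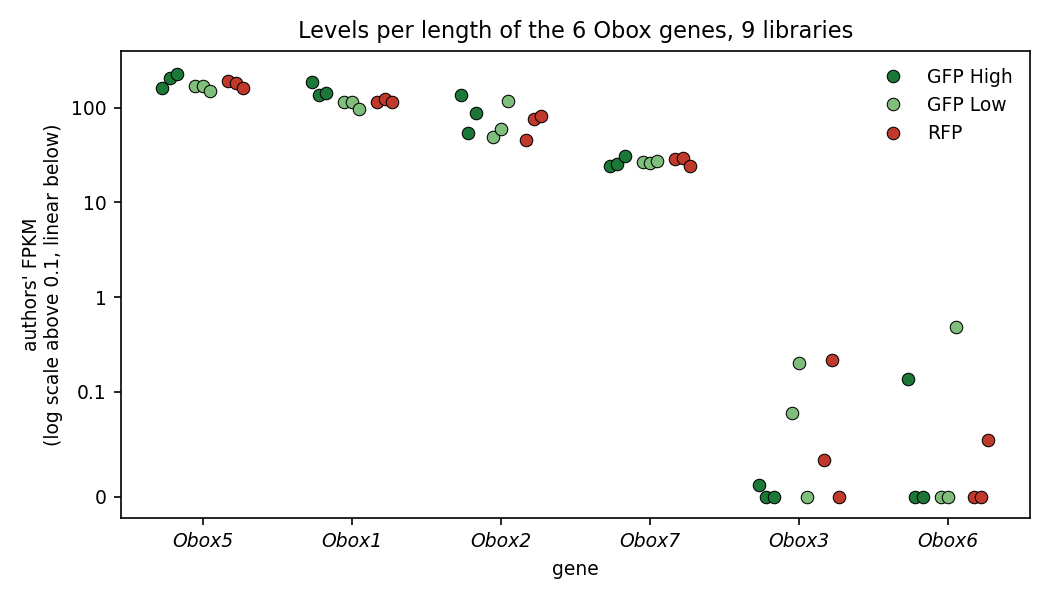
Authors' FPKM of each Obox gene in the 9 libraries (points, coloured by group), on an axis that is logarithmic above 0.1 and linear below. Obox5, Obox1, Obox2 and Obox7 lie between 24.2 and 228 FPKM in every library, and Obox3 and Obox6 lie below 0.5 FPKM.

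A further 16 rows of the tables carry an Obox name, 6 of them Obox3 pseudogenes and 10 named Obox4-ps, 1 of which is annotated as a lincRNA. Together they held 238 counts over 9 libraries against 180581 for the 6 members. The highest single value was 27 counts, for Obox3-ps5 in GFP High 1. Obox3-ps5 had 27, 0 and 1 counts in the GFP High pools, 2, 6 and 0 in the GFP Low pools, and 10, 22 and 5 in the RFP pools. Obox4-ps32 had 23 counts in GFP High 3 and 0 in the other 8 libraries. None of the 16 rows passed the filter for testing in any comparison.

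The abundant members differed in how evenly they were found across pools, whose values follow in the order of replicates 1, 2 and 3. Obox7 was even: it had 39.1, 40.6 and 50.02 CPM in the GFP High pools, 43.0, 42.1 and 44.4 in the GFP Low pools, and 46.6, 48.1 and 39.6 in the RFP pools. Its highest library was 1.28 times its lowest. Obox2 was the most uneven. It had 226, 88.1 and 147 CPM in the GFP High pools, 81.2, 98.3 and 198 in the GFP Low pools, and 76.6, 127 and 136.5 in the RFP pools. GFP High 1 and GFP Low 3 were the high libraries and RFP 1 the lowest. The pools differed within each group, and the groups overlapped.

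The coefficient of variation (CV, the SD over the mean) of Obox2 between replicates was 45.1% among GFP High pools, 50.2% among GFP Low pools and 28.45% among RFP pools. For comparison, the 200 tested genes nearest to Obox2 in mean CPM had a median CV of 12.0%, 6.44% and 7.34%, and 1, 0 and 3 of these 200 genes had a larger CV than Obox2 in the same order. Obox1 had a CV of 17.6%, 9.51% and 3.83%, Obox5 16.45%, 6.53% and 7.94%, and Obox7 13.7%, 2.603% and 10.1%. In the same order, 17, 24 and 162 of 200 neighbours had a larger CV for Obox1. These numbers were 14, 65 and 88 for Obox5, and 121, 191 and 92 for Obox7. Among GFP High pools, Obox1 and Obox5 also lay above the 90th percentile of their neighbours, at 16.7% and 15.6%. These spreads are a description, since 3 pools fix a CV poorly.

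**Figure D3:**
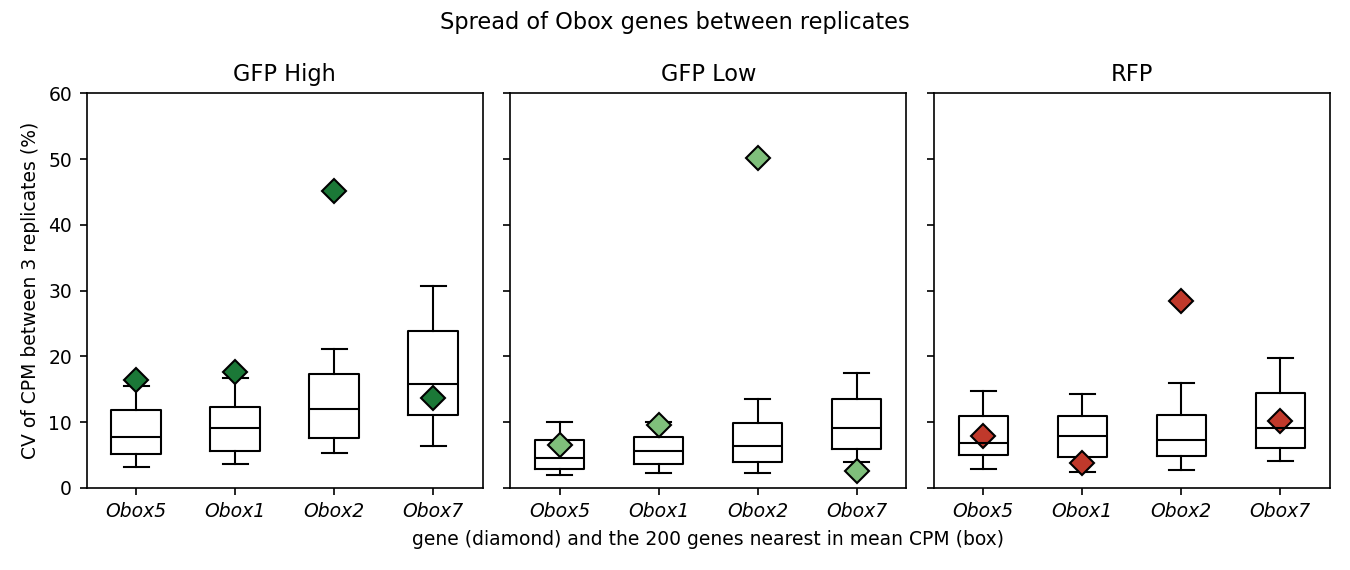
Coefficient of variation of CPM between the 3 replicates of each group for 4 Obox genes (diamonds), beside the 200 genes nearest in mean CPM (boxes, with the median, quartiles, and whiskers at the 10th and 90th percentiles). Obox2 lies at 45.1%, 50.2% and 28.45% and above the upper whisker in each group, and Obox1 and Obox5 lie above it in GFP High only.

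Within the near-identical pair, Obox2 took 25.6% to 51.5% of the counts of Obox1 and Obox2 together. This share was 39.1%, 25.6% and 34.9% in the GFP High pools, 26.7%, 30.9% and 51.5% in the GFP Low pools, and 25.9%, 35.1% and 38.1% in the RFP pools. The sum of both genes was 579, 344 and 420.0 CPM in the GFP High pools, 304, 318 and 385 in the GFP Low pools, and 296, 363 and 359 in the RFP pools. GFP High 1 thus stood highest in the sum as well as in each gene, whereas GFP Low 3 had the highest Obox2 level of its group and the lowest Obox1 level. The summed cumulus markers stood at 47.5 CPM for GFP High 1 and 26.1 for GFP Low 3, beside 10.8 to 59.9 for the other libraries. The part of cumulus RNA and of read assignment between the copies in this spread was not tested.

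GFP High was first compared with RFP, that is, strongly green eggs with red eggs. Obox1 stood at 353, 256 and 273 CPM in the GFP High pools and at 219, 236 and 222 in the RFP pools. All GFP High libraries were above all RFP libraries, as for 5.04% of the genes tested, and 11.8% did not overlap in either direction. The log2 fold change of Obox1 was 0.39 (SE 0.13), or 1.31-fold, with an unadjusted p of 0.0115 and an adjusted p of 0.997 in edgeR's quasi-likelihood test. Without GFP High 1, the library with the highest level, the log2 fold change was 0.23.

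Of the 4 members tested, 0 passed an adjusted p of 0.05, where 0.0135% of 14829 genes did, and 1 (Obox1) had an unadjusted p under 0.05 in edgeR, where 4.09% of genes did. DESeq2 also called 0 members. Obox5 had 351, 436 and 489.5 CPM in the GFP High pools and 414, 394 and 354 in the RFP pools, and the groups overlapped. Obox5 differed by 0.14 on the log2 scale (SE 0.13), with an edgeR adjusted p of 0.997, and by 0.02 (0.0226) without GFP High 3 and 0.26 without GFP High 1. Obox2 differed by 0.44 on that scale (SE 0.31), with an edgeR adjusted p of 0.997, and the difference was 0.05 without GFP High 1. Obox7 was at -0.05 (SE 0.16, edgeR adjusted p = 0.998). The median of the 4 members was 0.26, beside -0.01 for all genes tested.

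GFP Low, the weakly green eggs, was compared with RFP in the same way. Here 0 of 4 members passed the threshold, where 0.0197% of 15199 genes did, and 0 had an unadjusted p under 0.05 in edgeR, where 2.62% did. The pools of the 2 groups did not overlap for 0 members, beside 7.68% of genes, or 3.62% with all GFP Low pools above. DESeq2 also called 0. Obox1, at 223, 220 and 187 CPM in the GFP Low pools, overlapped with RFP, and its log2 fold change was -0.10 (SE 0.09) with an edgeR adjusted p of 1. Obox5, at 363, 367.5 and 326 CPM in GFP Low, had -0.14 (SE 0.08) and Obox7 -0.05 (SE 0.12), each with an edgeR adjusted p of 1. Obox2 had 0.15 (SE 0.28, edgeR adjusted p = 1), and this value turned to -0.34 without GFP Low 3. The median of the members was -0.08, beside 0.00 (-0.00408) for all genes tested. Both comparisons with RFP share the RFP libraries, and the difference between them was not tested.

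GFP High was also compared with GFP Low, where both groups are green and differ in strength. Of 4 members, 0 passed the threshold, as did 0% of 14785 genes, and 2 (Obox1 and Obox5) had an unadjusted p under 0.05 in edgeR, where 3.77% of genes did. DESeq2 called 0 members as well. Obox1 had 294 ± 51.7 CPM over the GFP High pools and 210 ± 19.95 over the GFP Low pools (SD, n = 3), and all GFP High libraries were above all GFP Low libraries, as for 4.79% of genes tested, and 11.5% did not overlap in either direction. Its log2 fold change was 0.49 (SE 0.13), or 1.40-fold, with an edgeR unadjusted p of 0.00348, the 24th smallest, and an edgeR adjusted p of 0.998. The call depended on the low-count filter: with no filter, Obox1 passed with an edgeR adjusted p of 0.0233. This was the lowest of a range of 0.0233 to 0.999 over the 8 alternatives that kept all libraries. With no filter, 16 genes passed in place of 0, and the fit gave smaller SEs. The SE was 0.11 in place of 0.13 for Obox1, and 0.12 in place of 0.36 for the uneven Obox2. In the authors' deposited table Obox1 has an adjusted p of 0.144.

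Obox5 had 425 ± 70.0 CPM over the GFP High pools and 352 ± 23.0 over the GFP Low pools (SD, n = 3), and GFP High 1 lay within the GFP Low range. Its log2 fold change was 0.28 (SE 0.12), with an unadjusted p of 0.0403 and an adjusted p of 0.998 in edgeR. Without GFP High 3, its highest library, this value was 0.16. For Obox2 the value was 0.29 (SE 0.36, edgeR adjusted p = 0.998), and it was -0.11 without GFP High 1 and 0.77 without GFP Low 3. Obox7 was at 0.00 (0.0034, SE 0.15, edgeR adjusted p = 0.999), although its sign changed under several alternatives. The median of the 4 members was 0.28, beside -0.00479 for all genes tested.

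**Figure D4:**
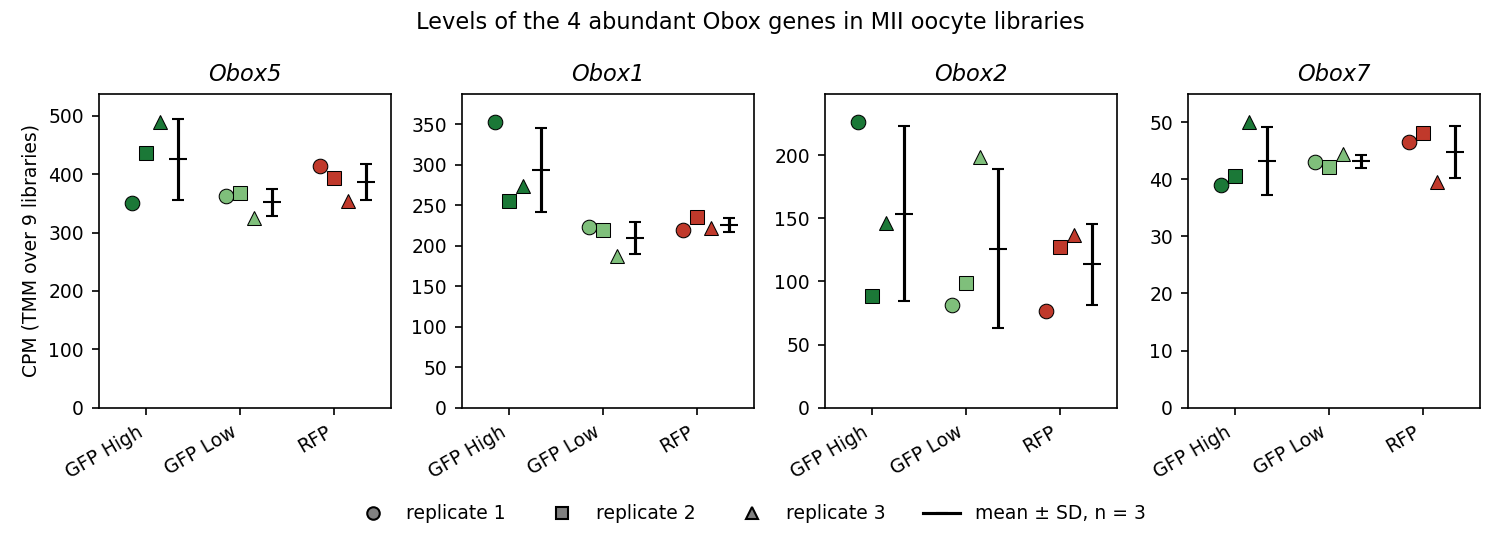
CPM of 4 Obox genes in each library (symbols by replicate, colours by group) with the mean and SD of each group (n = 3). In Obox1 the GFP High libraries (256 to 353 CPM) lie above all others (187 to 236), and in Obox2 the pools differ within every group and the groups overlap.

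Summed over the family, members reached 969, 821 and 959 CPM in the GFP High pools. The sums were 710.1, 728.5 and 756 CPM for the GFP Low pools, and 757, 805.5 and 752 for the RFP pools. The GFP High sums lay above the other 6 libraries, narrowly so for GFP High 2 at 821 CPM against 805.5 in RFP 2. Obox1 and Obox2 were high in GFP High 1, and Obox5 was high in GFP High 3. Taken singly, Obox2, Obox5 and Obox7 overlapped between the groups in each comparison. Among single genes, 5.04% had all GFP High pools above all RFP pools and 4.79% above all GFP Low pools. The share of genes above both groups at once was not counted. The family sum is a description and carries no test. The oocyte marker sum was likewise higher in all GFP High pools than in all RFP pools, and the oviduct marker sum higher in all GFP High than in all GFP Low pools. Their part in the Obox1 and family levels was not tested. GFP High pools held the fewest oocytes, so the number of oocytes and the group cannot be told apart. The GFP High replicates also differed more from each other in their counts than the replicates of the other groups.

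**Figure D5:**
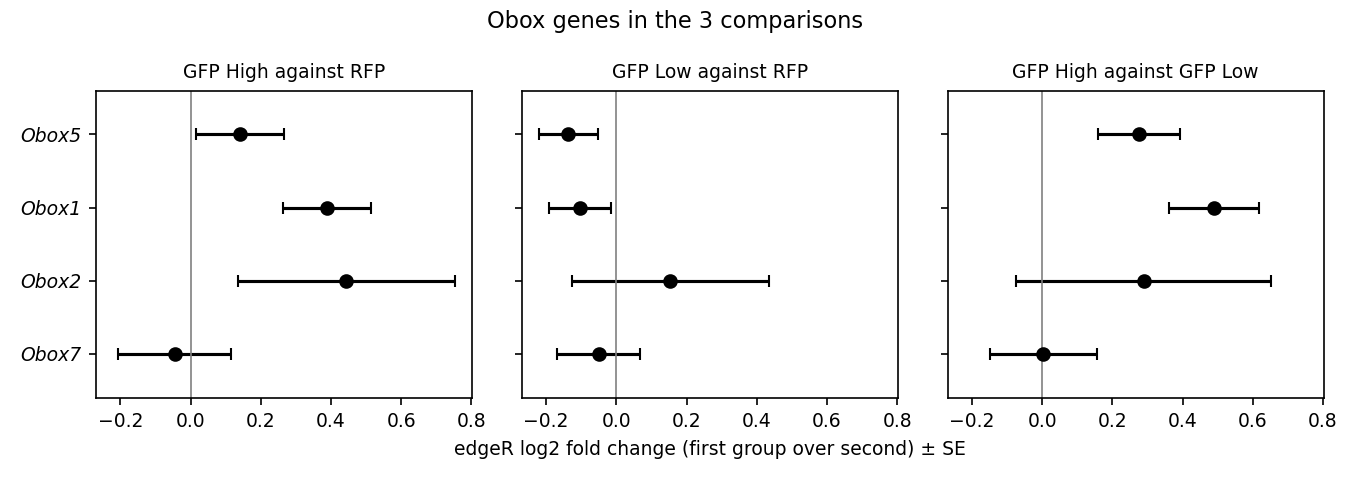
edgeR log2 fold changes (points) with standard errors derived from the test statistic (bars) of 4 Obox genes in each comparison, where values above 0 are higher in the first group. Obox1 lies at 0.39 and 0.49 in the comparisons of GFP High and at -0.10 in GFP Low against RFP, and none passed the adjusted threshold.

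Other genes around the Obox pathway were taken from written lists. Of 14 homeobox genes of the oocyte and early embryo, 13 were found and 7 tested, and 0 passed the threshold in any comparison. The most abundant were Nobox, a homeobox regulator of oocyte genes needed for early follicles, at a mean of 444 ± 59.96 CPM in GFP High pools, 413.5 ± 36.5 in GFP Low pools and 405 ± 4.70 in RFP pools (SD, n = 3), and Pou5f1, the pluripotency factor Oct4, with 258 ± 21.7, 249 ± 12.0 and 234 ± 14.0. The median log2 fold change of the list was 0.15, 0.12 and 0.05 for GFP High against RFP, GFP Low against RFP, and the GFP High with the GFP Low pools. Duxf3, Nanog, Cdx2, Crxos and Crx, homeobox genes of the embryo or of other tissues, each averaged 0.148 CPM or less, and are named here after their values were seen.

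Of 8 regulators of the oocyte transcription program, 7 were tested and 0 passed in any comparison. The highest were Foxo3, a forkhead factor that restrains follicle activation, at 815 CPM on average, and Nobox at 421. Foxo3 had 773 ± 67.25 CPM in the GFP High pools, 855 ± 12.8 in the GFP Low pools and 818 ± 122 in the RFP pools (SD, n = 3). The list medians were 0.07, 0.03 and 0.02 on the log2 scale in the order of comparisons used above.

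Of 20 maternal factors of genome activation and early chromatin, 19 were tested and 0 passed. The highest were Npm2, the egg nucleoplasmin that remodels sperm chromatin, at 1906 CPM, and Dppa3 (Stella), which protects maternal DNA methylation, at 1879. Npm2 had 2070 ± 271 CPM in the GFP High pools and 1778 ± 73.8 in the RFP pools (SD, n = 3), which differed by 0.22 on the log2 scale (SE 0.09) with an edgeR adjusted p of 0.997. Their list medians were 0.01, 0.01 and 0.03. Of 22 genes known from the 2-cell embryo, 16 were found, 6 were tested and 0 passed. Sp110 was highest at 336 CPM, then Tcstv1 at 19.5, while Zscan4d, of the cluster that marks the 2-cell stage and named after its value was seen, averaged 3.93. Here the medians were 0.25, 0.39 and 0.02, from 6 genes of mostly low counts.

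The genes whose profile over the 9 libraries was most like a member were sought among 7706 genes with at least 10 CPM on average, by Pearson's r of log2 CPM. For Obox5 these were B4galt6 (r = 0.958), Mier2 (r = 0.943) and Apba1 (r = 0.943). For Obox1 they were Eif1ad (r = 0.943), Vrk1 (r = 0.917) and Dbi (r = 0.915). Dbt (r = 0.972) came first for Obox2, chosen after the spread of Obox2 was seen, and ranged from 33.7 to 72.9 CPM. These are descriptions over 9 points that share library depth and scaling, with no test. Between members, r over the same libraries was 0.55 for Obox5 and Obox7, 0.36 for Obox1 and Obox2, and 0.29 for Obox5 and Obox1. It was -0.37 for Obox5 and Obox2, -0.24 for Obox1 and Obox7, and -0.13 for Obox2 and Obox7.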

How the data were processed

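Poly-A RNA of pooled MII oocytes was sequenced as paired ends. The submitters' processing notes list fastp, HISAT2 2.0.5, featureCounts 1.5.0-p3, DESeq2 1.20.0 and the build mm10, without roles. The authors deposited 3 tables, 1 per pair of groups, with raw counts per gene, which were the input to all tests. The deposited normalised signal, a count divided by a size factor within its table, was not used. The authors' FPKM (scaled to gene length and library size) served to compare members, and the authors' deposited log2 fold changes, p-values and adjusted p-values are quoted only by that name.

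Tables were joined by gene identifier into 30153 genes, and for 178 genes missing from a table the count was set to 0. Replicates of a group differed by at least 13.8 chi-square units per degree of freedom, so each library was kept. GFP High pairs differed most, at 37.2 to 57.6 units, beside 13.8 to 17.5 among GFP Low pools and 19.3 to 28.9 among RFP pools. The common biological coefficient of variation, a measure of spread between pools, was 0.475 when GFP High was fitted with RFP. It was 0.487 when GFP High was fitted with GFP Low, and 0.2475 in the fit that left GFP High out. At the smallest total, 1 CPM rests on 19.4 reads. Each pair was tested with edgeR 4.0.16 (R 4.3.3; filterByExpr, TMM, glmQLFit and glmQLFTest at their defaults, no covariate), with Benjamini-Hochberg adjustment over all genes tested and a threshold of 0.05. The fit was also run on simulated data, with changes larger than those of the Obox genes. That run cannot show whether changes as small as theirs would be found. Alternatives used DESeq2 1.42.0, limma-voom 3.58.1, other scalings, no filter, 9 libraries in one fit, a replicate block, and each library left out. Same-numbered libraries deviated from their group means with correlations of -0.113 to 0.116, and the labels give no pairing.

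Named genes were all members, other rows named Obox, the 2 most abundant genes of each list and any that passed, and the 3 genes most alike to the leading 2 members. Genes named outside this rule are marked in the text. Members and lists were chosen with earlier results of these data known. The SDs are between libraries. The SEs given for edgeR were derived as the absolute log2 fold change over the square root of the test statistic F. That statistic comes from a fit that includes the spread between pools. Counts are of reads, which carry no molecular identifiers.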

Additional observations from a re-analysis of the deposited data

How the results depend on the processing

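In edgeR with no filter on low counts, 1 member (Obox1) passed in GFP High against GFP Low, and 0 passed under the other settings in any comparison, those without 1 library included. Obox1 and Obox5 kept their direction in 14 of 14 alternatives in each comparison, but not their size. Without 1 library, Obox5 ran from 0.0226 to 0.2552 (GFP High and RFP), -0.1998 to -0.0858 (GFP Low and RFP) and 0.1556 to 0.3902 (GFP High and GFP Low). In the same order, Obox1 ran from 0.2281 to 0.4727, -0.1504 to -0.0291 (the smallest without GFP Low 3) and 0.3303 to 0.5751. Obox7 in GFP High against GFP Low changed sign with limma-voom (-0.0153), library totals without TMM factors (-4e-04), no filter (-0.0062), the replicate block (-0.0044) and bias-adjusted deviances, an option added after seeing the data (-0.0056). Without 1 library, the Obox7 value there ran from -0.1217 to 0.0643. For the RFP comparisons it ran from -0.1683 to 0.0158 with GFP High and from -0.133 to 0.0063 with GFP Low. Without 1 library, Obox2 ran from -0.3383 to 0.3861 between the GFP Low and RFP pools, and from -0.1085 to 0.7713 between the GFP High and GFP Low pools. Causes were not tested. The replicate block, whose numbers do not pair the libraries, left 0 members called in each comparison, and over all genes it gave 4 calls in place of 2 in GFP High against RFP. The calls over all genes, 2, 3 and 0 in the main test, were 12, 10 and 4 with DESeq2, 1, 1 and 0 with limma-voom, 16, 34 and 16 with no filter, and 0 to 2, 2 to 3 and 0 to 1 without 1 library. Divided by counts and not by length, the share of Obox7 in the family was 5.48% in place of 6.62%. Windows of 50 bases raised the shared part of Obox1 and Obox2 to 59.3% and 63.0%, of Obox3 to 40.6%, of Obox5 to 13.0%, of Obox7 to 20.2% and of Obox6 to 5.02%. Depth limits Obox3 and Obox6, whose levels were at most 18 counts.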
